A study of Drosophila melanogaster with 15 samples.

Results

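The genes of monoamine synthesis and transport were examined in neurons sorted from the brains of third-instar Drosophila larvae. The 7 genes are Tdc2, Tbh, ple, Ddc, Vmat, DAT and SerT. They were taken by symbol from the platform annotation, which gives 10 probe sets for them among the 18769 on the array other than controls, with 4 for Vmat and 1 for each of the others. Each of the 5 groups had 3 arrays, which the titles call biological replicates. The first 3 groups were ventral lateral neurons (LNvs), the pacemaker cells that make Pigment-dispersing factor, at zeitgeber time (ZT) 15. They were cyc0 mutants (yw, Pdf-RFP, cyc0), per0 mutants (yw, per0, Pdf-RFP) and wild type (yw, Pdf-Gal4, UAS-GFP). The fourth was wild-type LNvs of the same genotype at ZT3, and the fifth was neurons labelled by elav-Gal4 with UAS-GFP at ZT15, with no yw in their genotype label. Zeitgeber time counts hours from the onset of light, which puts ZT3 in the light and ZT15 in the dark. Both mutants carried RFP and the other groups GFP, so genotype and reporter cannot be told apart in any comparison of a mutant with wild type, although the sorting protocol names RFP for every array. The elav arrays bear LNvs in their tissue label too, but were grouped by title and genotype. Mutant LNvs differ from elav neurons in cell type, clock genotype, reporter and the yw label together, which cannot be told apart. Each array holds RNA of pooled cells, so fewer cells with a transcript and less transcript per cell cannot be told apart.

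Monoamines are made from aromatic amino acids. In flies the tyrosine decarboxylase Tdc2 makes tyramine in neurons, and Tbh, tyramine beta-hydroxylase, turns tyramine into octopamine, the insect relative of noradrenaline. The tyrosine hydroxylase ple makes L-DOPA, and Ddc, dopa decarboxylase, makes dopamine from it and also carries out the last step of serotonin synthesis. Vmat loads all of these amines into vesicles, while DAT and SerT take dopamine and serotonin back up from outside the cell. A neuron that uses a monoamine as its transmitter normally expresses the enzymes of its branch together with Vmat.

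In these cells Tbh was the one member that stood higher in wild-type LNvs at ZT15 than in elav neurons, and it was lower in both clock mutants than in wild type. Ddc was lower at ZT15 than at ZT3 in wild-type LNvs. A Vmat probe set was lower in per0 LNvs than in elav neurons, and lower than in ZT3 wild-type LNvs. Transcripts of Tdc2, ple and SerT lay near the lower end of the scale on every array, and DAT stood above it mainly in elav neurons. Levels below are log2 GCRMA values, with means ± SD (n = 3), and the lowest value on any array was 2.28. A probe set was tested where at least 3 of the 15 arrays reached log2 4, a working level and not a measured detection limit, which 4 of the 10 member probe sets did. A difference passed at an adjusted p of 0.05 from limma with Benjamini-Hochberg adjustment over all 5829 probe sets tested. Log2 differences are the first-named group minus the second.

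The labels were checked against marker genes, and the arrays against each other. Pdf lay between 12.37 and 13.07 on the LNv arrays and between 3.06 and 4.49 on the elav arrays. Averaged over each array, the 6 probe sets of fast-transmitter neurons (ChAT, VAChT, Gad1, VGAT and VGlut) ranged from 2.48 to 3.18 in LNvs and from 4.19 to 4.53 in elav neurons. The 5 neuroblast probe sets ranged from 2.51 to 4.02 in LNvs and from 4.99 to 6.66 in elav neurons, and the 6 pan-neuronal ones from 3.55 to 4.88 in LNvs and from 3.91 to 4.45 in elav neurons. Of the 2 tested pan-neuronal markers, 1 was called higher and 1 lower in wild-type LNvs at ZT15 than in elav neurons, where 12.5% of all probe sets passed. The part of these cell types in the differences between LNvs and elav neurons was not tested. The array averages of the 7 hemocyte probe sets stayed between 2.33 and 3.22 and those of the 3 of fat body between 2.34 and 3.04. Of the 2 tested hemocyte markers, 1 was called lower in each LNv group than in elav neurons, where 5.61% to 12.5% of all probe sets passed. Between 3520 and 5436 probe sets reached log2 4 on an array. Arrays correlated with the others of their group at 0.785 to 0.913 on average, and the lowest values were those of cyc0 replicate 3 and wild-type ZT15 replicate 1 (0.786). The cyc0 replicate 2 array correlated with its group at 0.811 and with an array of another group at up to 0.894. The 3 wild-type ZT15 arrays likewise had a higher correlation with an array of another group (0.821 to 0.838) than with their own group on average (0.786 to 0.825).

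Tbh, the octopamine-synthesizing enzyme, had 1 probe set (1627317_a_at) and the widest range of the tested members between groups. It read 4.06, 4.43 and 4.23 in cyc0 LNvs, 7.70, 4.23 and 6.01 in per0 LNvs, and 7.97, 9.99 and 10.49 in wild-type LNvs at ZT15. The wild-type LNvs at ZT3 gave 6.96, 5.92 and 5.89, and the elav neurons 3.22, 2.57 and 3.05. All 12 LNv arrays were therefore above all 3 elav arrays, and the wild-type ZT15 arrays were above every other array. The group means ran in the order wild type at ZT15 (9.49 ± 1.33), wild type at ZT3 (6.25 ± 0.61), per0 (5.98 ± 1.74), cyc0 (4.24 ± 0.18) and elav neurons (2.95 ± 0.34). The ZT3 and per0 arrays overlapped, as did per0 and cyc0, while cyc0 and elav neurons did not overlap but did not pass the test (log2 difference 1.29, 95% interval -0.32 to 2.90, adjusted p = 0.38).

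**Figure D1:**
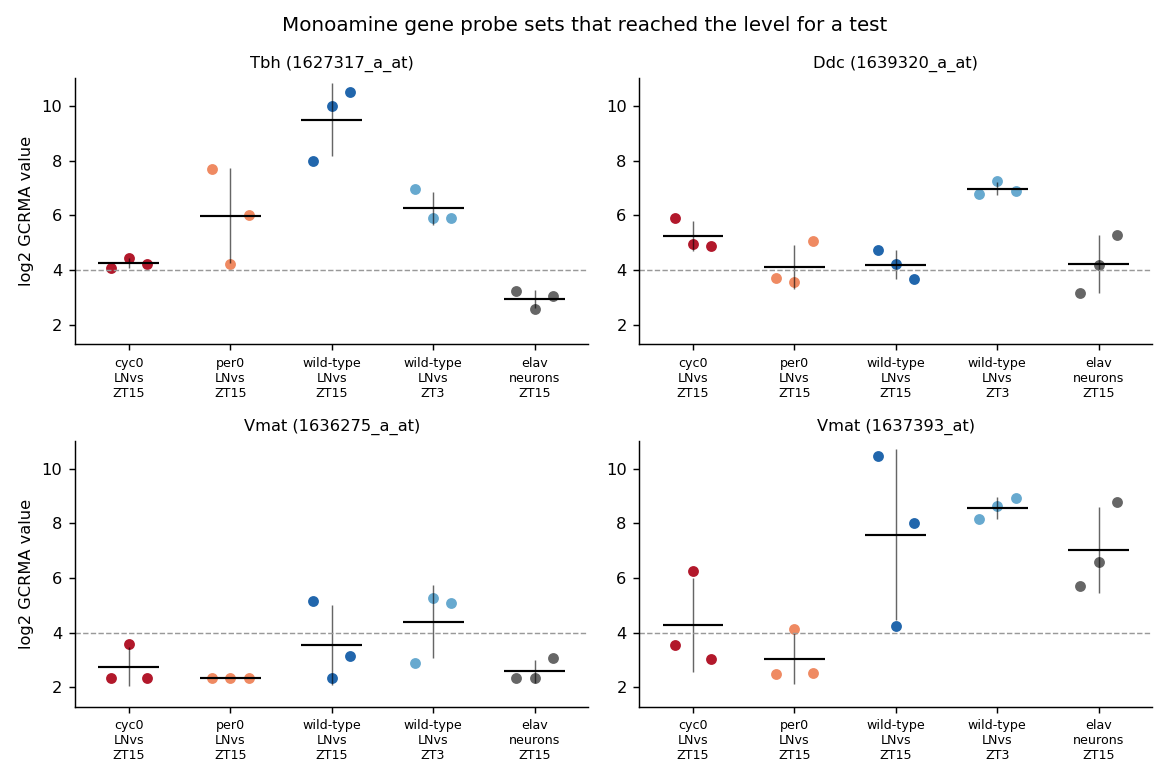
Log2 GCRMA values (vertical axis) of the 4 member probe sets that reached the level for a test, in 5 groups of 3 arrays (points), with the group mean (bar) and SD (line) and log2 4 dashed. Tbh is highest on the wild-type ZT15 arrays (7.97 to 10.49), Ddc on the wild-type ZT3 arrays (6.77 to 7.24), and the Vmat probe set 1637393_at is low in per0 (2.49 to 4.13).

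Against wild-type LNvs at ZT15, Tbh was lower in both mutants. In cyc0 LNvs it fell by 5.24 on the log2 scale (SE 0.76, 37.9-fold lower, adjusted p = 0.00107), with no overlap between the arrays. It was the 1 member probe set of the 4 tested that passed in this comparison, in which 2.9% of all tested probe sets passed. The call held under all 23 alternatives (largest adjusted p = 0.0261), also without wild-type ZT15 replicate 1 (0.000698). In per0 LNvs Tbh fell by 3.51 (SE 0.76, 11.4-fold lower, adjusted p = 0.033), again with no overlap and as the 1 member that passed, against a background of 1.18%. This second call was less stable. It was lost without wild-type ZT15 replicate 2 or 3, without per0 replicate 2 or 3 and without cyc0 replicate 1, at adjusted p = 0.138, 0.135, 0.127, 0.106 and 0.0509, and with no filter on low values (0.157) or when the 6 arrays of the comparison were fitted alone (0.166).

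The mutants were also set against each other. The cyc0 minus per0 difference for Tbh was -1.74 (95% interval -3.35 to -0.13, adjusted p = 0.451), and none of the 4 tested member probe sets passed there, against 0.789% of all probe sets tested. At an unadjusted threshold of 0.05, 1 of the 4 tested, Tbh, would have passed, against 10.1% of all probe sets. The Tbh difference depended on the per0 arrays, at -0.88 without per0 replicate 1 and -2.61 without per0 replicate 2, and with array weights Tbh and Ddc passed (adjusted p = 0.00447 and 0.016). The clock gene tim, a target of the CLOCK/CYCLE activator, differed between cyc0 and per0 LNvs (adjusted p = 2.25e-07), with all cyc0 arrays below log2 4. By its probe set 1634188_a_at tim read 2.88, 2.85 and 3.21 in cyc0 LNvs, 11.08, 10.84 and 10.76 in per0 LNvs and 11.09, 10.84 and 10.75 in wild-type LNvs at ZT15. A second tim probe set, 1631468_a_at, is not shown here. The part of CLOCK/CYCLE activity in the Tbh differences was not tested.

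Of the 4 tested glial markers, 1 was also called lower in both mutants than in wild-type LNvs at ZT15. Gs2, a glutamine synthetase gene of glia, read 4.44, 4.84 and 4.44 in cyc0 LNvs and 4.41, 3.46 and 3.85 in per0 LNvs, against 5.51, 8.01 and 7.18 in wild-type LNvs at ZT15. Gs2 fell in both, by 2.33 on the log2 scale in cyc0 LNvs (adjusted p = 0.0448) and by more in per0 LNvs (adjusted p = 0.0225). At ZT15 it was 2.03 higher in wild-type LNvs than in elav neurons (adjusted p = 0.0346), where the glial marker nrv2 was lower (adjusted p = 0.0222). The other 3 tested glial markers did not pass in either mutant comparison. The median difference of the 4 from wild type at ZT15 was -0.096 in cyc0 and -0.53 in per0 LNvs. The glial transcription factor gene repo stayed between 2.83 and 3.18 on the wild-type ZT15 arrays. The part of glial RNA in the Tbh differences was not tested.

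Between the times, Tbh in wild-type LNvs was 3.23 higher at ZT15 than at ZT3 on the log2 scale (SE 0.76, 95% interval 1.62 to 4.84), with no overlap between the arrays, but it missed the threshold (adjusted p = 0.0633). It passed after median-centring (adjusted p = 0.0467), after quantile normalization (0.0427), with array weights (0.0191) and without wild-type ZT15 replicate 1 (0.023), per0 replicate 1 (0.0344) or per0 replicate 2 (0.0278). With no filter on low values its adjusted p was 0.297.

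Set against elav neurons, Tbh was higher in 3 of the 4 LNv groups. All elav arrays lay below log2 4, so folds are lower bounds taken from that level. Wild-type LNvs at ZT15 were at least 44.8-fold higher (log2 difference 6.54, SE 0.76, adjusted p = 7.61e-05), and no other member passed in that comparison, against a background of 12.5%. The call held under all 23 alternatives (largest adjusted p = 0.00446). Wild-type LNvs at ZT3 were at least 4.77-fold higher (3.31, adjusted p = 0.00995), a call lost under 1 alternative, with no filter on low values (0.0678). The per0 LNvs were at least 3.95-fold higher (3.03, adjusted p = 0.017), which was lost without per0 replicate 1 (0.121), per0 replicate 3 (0.054) or elav replicate 2 (0.0597) and with no filter (0.0993). None of the 4 tested member probe sets passed between cyc0 LNvs and elav neurons, where 5.61% of all probe sets did. At an unadjusted threshold of 0.05, 1 of the 4 tested, Vmat by 1637393_at, would have passed there, against 19.8% of all probe sets.

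Tdc2 makes tyramine, the substrate of Tbh. Its probe set (1632764_at) read 3.03, 2.34 and 2.89 in cyc0 LNvs, and in the other 3 LNv groups all 9 arrays lay between 2.34 and 2.35. The elav arrays read 2.69, 3.50 and 2.73. All of these lie on the low part of the scale, where values have no order. No array reached log2 4 and Tdc2 was not tested. With no filter, its difference at ZT15 between wild-type LNvs and elav neurons was -0.62 (adjusted p = 0.195). Tdc1, the paralogue with the same enzyme activity, which was described mainly outside the nervous system, stayed at or below 3.01 on all arrays.

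In the dopamine and serotonin branch, too, 1 enzyme reached the level for a test and 1 did not. The probe set of ple (1624452_a_at), the enzyme that opens dopamine synthesis, lay between 2.32 and 2.35 on 14 of 15 arrays and at 2.84 on cyc0 replicate 1. Ddc (1639320_a_at), the next enzyme, read 5.89, 4.96 and 4.89 in cyc0 LNvs, 3.70, 3.58 and 5.05 in per0 LNvs, and 4.72, 4.20 and 3.68 in wild-type LNvs at ZT15. In wild-type LNvs at ZT3 it read 6.77, 7.24 and 6.90, above every other array of the study, and in elav neurons 3.17, 4.19 and 5.27. Group means ran from ZT3 wild type (6.97 ± 0.24) over cyc0 (5.25 ± 0.56) to elav neurons (4.21 ± 1.05), wild type at ZT15 (4.20 ± 0.52) and per0 (4.11 ± 0.82). The last 3 of these overlapped. The cyc0 arrays overlapped those of elav neurons and per0, but not those of wild type at ZT15.

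In wild-type LNvs Ddc fell by 2.77 on the log2 scale at ZT15 against ZT3 (SE 0.60, 6.81-fold lower, adjusted p = 0.0348), with no overlap between the arrays. The fold includes ZT15 replicate 3 at 3.68, below log2 4. Ddc was the 1 member probe set of the 4 tested that passed between the times, against a background of 0.789%. The call was lost without ZT3 replicate 1, 2 or 3 (adjusted p = 0.0885, 0.163 and 0.0971), without ZT15 replicate 2 or 3 (0.0942 and 0.145) and without per0 replicate 1 (0.051). It was also lost with no filter (0.111), when the 6 arrays of the comparison were fitted alone (0.137) and with another variance prior (0.052), and the difference stayed between -3.03 and -2.51 with any array left out.

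Against elav neurons, Ddc in wild-type LNvs at ZT3 was 2.76 higher (SE 0.60, 6.77-fold, adjusted p = 0.00669), and this call held under all 23 alternatives (largest adjusted p = 0.0403). The fold includes elav replicate 1 at 3.17, below log2 4. With Tbh, Ddc made 2 of 4 tested member probe sets called in that comparison, where 11.2% of all probe sets passed, and time and cell type differ together there. At ZT15 Ddc differed from elav neurons by -0.01 in wild-type LNvs (95% interval -1.28 to 1.26), by -0.10 in per0 and by 1.04 in cyc0, none of which passed (adjusted p = 0.996, 0.942 and 0.367). The cyc0 arrays lay above all wild-type ZT15 arrays, with a difference of 1.05 that did not pass (95% interval -0.22 to 2.32, adjusted p = 0.36) other than with array weights (0.049).

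Glial markers were read beside Ddc. Averaged over the 6 glial marker genes that could be matched, of 7, the wild-type arrays ranged from 3.86 to 4.32 at ZT15 and from 4.22 to 5.32 at ZT3, and none of the 4 tested markers passed between the times. Of the markers, repo read 2.92, 3.18 and 2.83 at ZT15 and 5.87, 3.58 and 7.37 at ZT3. On the same arrays Ddc read 4.72, 4.20 and 3.68 at ZT15 and 6.77, 7.24 and 6.90 at ZT3. Of the 4 tested markers, 1 was called higher in ZT3 wild type than in elav neurons, where 11.2% of all probe sets passed. Against ZT3 wild type, 1 was called lower in cyc0 and in per0 LNvs, where 1.51% and 2.16% passed. The part of glial RNA in the Ddc differences was not tested.

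**Figure D2:**
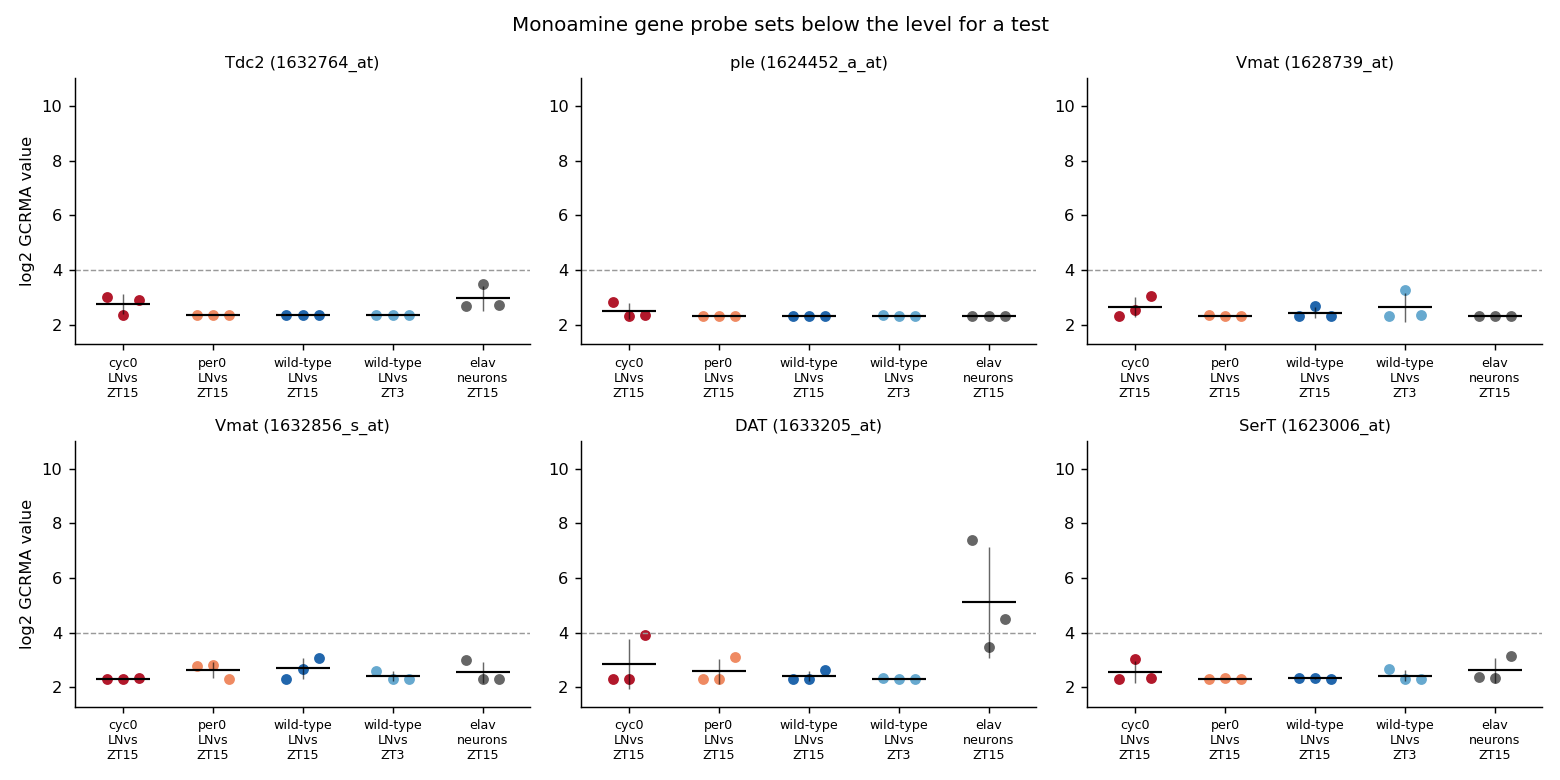
Log2 GCRMA values of the 6 member probe sets that were not tested, drawn as in the plot of the tested members. Apart from DAT, which reached 7.38 and 4.48 on elav arrays, no probe set reached log2 4 (dashed) on any array.

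Vmat, the vesicular carrier shared by all monoamine neurons, had 4 probe sets that did not read alike. The annotation does not say which transcripts each one covers, and 2 isoforms, DVMAT-A and DVMAT-B, have been described in flies, with DVMAT-B in glia. The probe sets 1628739_at and 1632856_s_at stayed at or below 3.26 and 3.09 on all arrays. The suffix of 1632856_s_at marks probes that can match several transcripts. The probe set 1637393_at covered most of the scale and is described first.

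By 1637393_at Vmat read 3.55, 6.25 and 3.04 in cyc0 LNvs, 2.49, 4.13 and 2.53 in per0 LNvs, and 10.46, 4.26 and 8.02 in wild-type LNvs at ZT15. The wild-type LNvs at ZT3 gave 8.14, 8.62 and 8.91 and the elav neurons 5.70, 6.59 and 8.78. The ZT15 wild-type arrays were spread over more than the range of all elav arrays (SD 3.13, against 0.39 at ZT3). Means ran from wild type at ZT3 (8.56) and at ZT15 (7.58) over elav neurons (7.02) to cyc0 (4.28) and per0 (3.05). The wild-type ZT15 arrays overlapped the ZT3, the elav and the cyc0 arrays. The cyc0 arrays also overlapped those of per0 and of elav neurons. No probe set of Vmat passed between ZT15 and ZT3 in wild type (-0.98, 95% interval -3.49 to 1.53, adjusted p = 0.922 for 1637393_at).

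The mutant groups were low by this probe set. In per0 LNvs Vmat was 3.97 lower on the log2 scale than in elav neurons (SE 1.19, adjusted p = 0.0424). Cell type, clock genotype and reporter differ together in that comparison and cannot be told apart. With 2 of the 3 per0 arrays below log2 4 no fold is given for this probe set. Together with Tbh, which moved the other way, it made 2 of 4 tested member probe sets called there, against a background of 10.2%. The call was lost without ZT3 replicate 2 or 3 (adjusted p = 0.0524 and 0.0502), wild-type ZT15 replicate 3 (0.0504), per0 replicate 1 or 3 (0.151 and 0.138), cyc0 replicate 1 (0.0539) or elav replicate 1, 2 or 3 (0.0514, 0.0765 and 0.156), and with no filter (0.251). Against wild type at ZT15 the per0 difference was -4.53 without overlap (95% interval -7.04 to -2.02, adjusted p = 0.0742). It passed after median-centring (0.0253), with array weights (0.0167) and without wild-type ZT15 replicate 2 (-6.19, adjusted p = 0.0132), the array that read 4.26. The cyc0 difference was -3.31 (95% interval -5.82 to -0.79, adjusted p = 0.142). It passed with array weights (0.036) and without that array (-4.97, adjusted p = 0.0217), and was -1.86 without replicate 1 (0.355).

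Both mutants were then set against wild-type LNvs at ZT3, where time, genotype and reporter differ together and cannot be told apart. Vmat by 1637393_at fell by 5.51 in per0 LNvs on the log2 scale (SE 1.19, adjusted p = 0.0226) and Ddc by 2.86 (SE 0.60, adjusted p = 0.0178), 2 of 4 tested member probe sets against a background of 2.16%. The Vmat call was lost without ZT3 replicate 1, 2 or 3 (adjusted p = 0.054, 0.0766 and 0.0631), without per0 replicate 1 or 3 (0.0833 and 0.0862) and with no filter (0.197). The Ddc call was lost without ZT3 replicate 2 (0.0799), per0 replicate 1 (0.0833) or per0 replicate 2 (0.0852) and with no filter (0.064). In cyc0 LNvs none of the 4 tested passed, against a background of 1.51%, with -4.28 for Vmat (adjusted p = 0.0849), -1.72 for Ddc (0.169) and -2.01 for Tbh (0.204). At an unadjusted threshold of 0.05 all 4 tested probe sets would have passed there, against 15.8% of all probe sets. Vmat passed there after median-centring (0.0307), with array weights (0.00296) and without wild-type ZT15 replicate 1 (0.0404) or 2 (0.0223) or cyc0 replicate 2 (0.0371).

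The second tested Vmat probe set, 1636275_a_at, passed in no comparison. It reached log2 4 on 3 arrays, with 5.27 and 5.07 in ZT3 wild type and 5.17 in ZT15 wild type, the array that was also highest by 1637393_at. Its remaining 12 arrays lay between 2.34 and 3.59. The per0 and cyc0 differences from wild type at ZT15 were -1.21 and -0.79 (adjusted p = 0.432 and 0.587), against -4.53 and -3.31 by 1637393_at. None of these differences passed. This probe set reached the level for a test only through wild-type LNv arrays. Lower values in the mutants and in elav neurons than in wild-type LNvs were thus built into its choice and add no support to 1637393_at. This also holds for its passes under alternatives. Without wild-type ZT15 replicate 1, the array at 5.17, its cyc0 difference was 0.019 and its per0 difference -0.40. For wild-type LNvs at ZT3 against elav neurons the difference by 1636275_a_at was 1.81 (adjusted p = 0.12), which passed with array weights (0.0424) and without ZT3 replicate 1 (0.0384). With array weights it also passed for cyc0 (-2.20, adjusted p = 0.0162) and per0 (-2.34, 0.0154) against ZT3 wild type.

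Glial marker levels also varied between these groups. The mean over the 6 glial probe sets ranged from 3.41 to 3.94 on cyc0 arrays and from 3.12 to 3.49 on per0 arrays, against 3.86 to 4.32 in wild type at ZT15, 4.22 to 5.32 at ZT3 and 3.87 to 5.15 in elav neurons. Of the 4 tested glial markers, 1 was called lower in each mutant than in wild type at ZT15. There 2.9% (cyc0) and 1.18% (per0) of all probe sets passed. Against wild type at ZT3, 1 was likewise called lower in each mutant, where 1.51% and 2.16% passed. Against elav neurons, 1 was called lower in per0 LNvs (10.2% of all probe sets) and none in cyc0 LNvs (5.61%). The part of glial RNA in the Vmat differences was not tested.

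The plasma membrane carriers were low in LNvs. DAT (1633205_at) read 2.33, 2.33 and 3.92 in cyc0 LNvs, 2.33, 2.33 and 3.12 in per0 LNvs and 2.33, 2.33 and 2.63 in wild-type LNvs at ZT15. It read 2.33 on all 3 ZT3 arrays and 7.38, 3.47 and 4.48 in elav neurons. Of the elav arrays 2 reached log2 4 and none of the LNv arrays did, and the elav arrays were spread widely among themselves (SD 2.03). DAT was therefore not tested. With no filter, DAT differed by -2.68 at ZT15 between wild-type LNvs and elav neurons (adjusted p = 0.137, unadjusted p = 0.00602). SerT (1623006_at) did not exceed 3.16 on any array, its highest values being 3.16 on elav replicate 3 and 3.03 on cyc0 replicate 2.

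**Figure D3:**
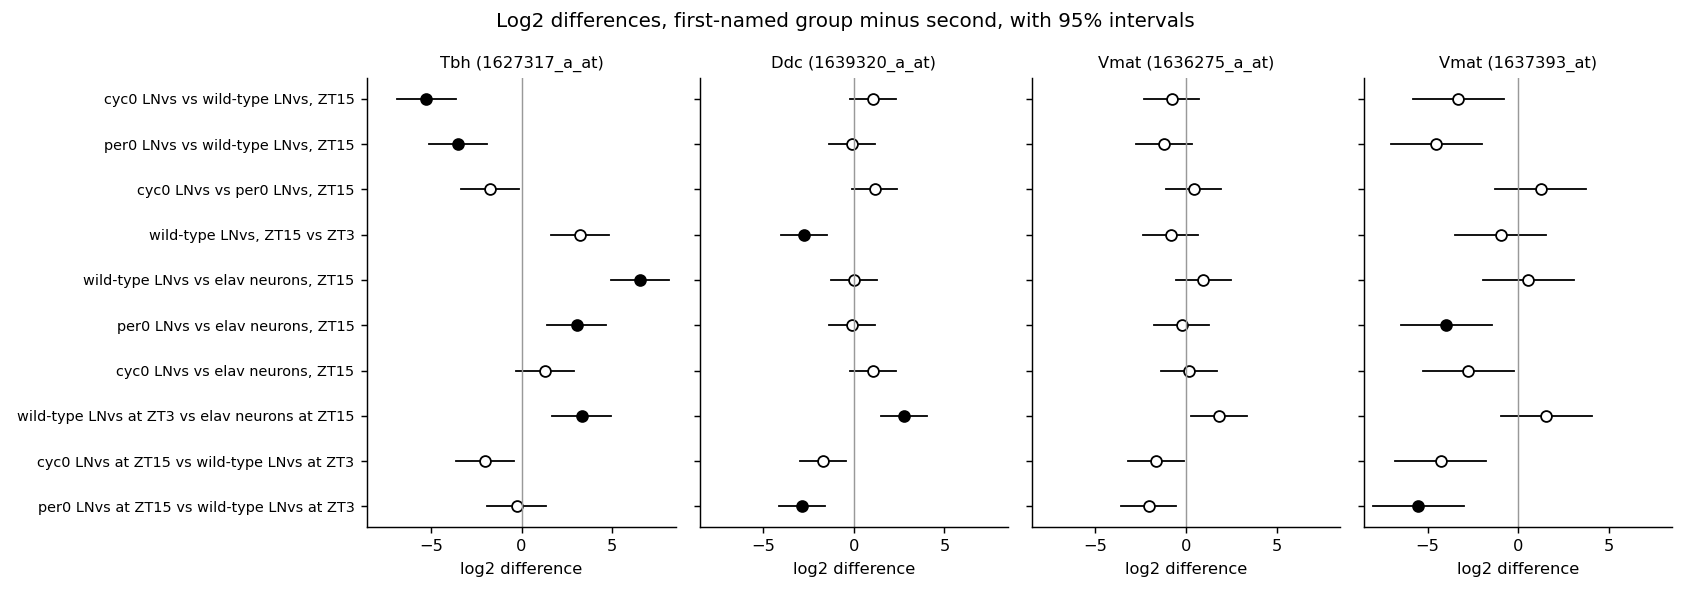
Log2 differences (horizontal axis, first-named group minus second) of the 4 tested member probe sets in 10 comparisons (rows), with 95% intervals as lines and filled points where the adjusted p was under 0.05. Filled points occur for Tbh in 5 comparisons, for Ddc in 3 and for the Vmat probe set 1637393_at in 2.

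The other genes of the pathway were read from 3 lists. Cofactor enzymes and other amine enzymes had 6 tested genes of 8 that could be matched (Pu, pr, Sptr, Dhpr and Pcd, of pterin cofactor metabolism, and Catsup, an inhibitor of tyrosine hydroxylase). None of them passed in any of the 10 comparisons, and 7 of their 60 differences had an unadjusted p under 0.05, against 18.4% over all probe sets tested. Their median difference was 0.95 for cyc0 and 0.49 for per0 against wild type at ZT15, -0.40 between ZT15 and ZT3, and 0.25 between wild-type LNvs and elav neurons. The medians of all tested probe sets in these comparisons were 0.17, 0.24, -0.06 and 0.11. Of the genes for amine turnover and other carriers (e, t, speck, ine and prt) none reached the level for a test, with the highest value 5.29, for prt.

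Of the 15 amine receptor genes that could be matched, 5 were tested. Oct-TyrR, a receptor for tyramine and octopamine, read 6.40, 4.80 and 5.04 in cyc0 LNvs, 5.07, 3.58 and 5.48 in per0 LNvs, 6.49, 6.18 and 6.63 in wild-type LNvs at ZT15, 7.23, 7.90 and 8.19 at ZT3, and 2.61, 2.96 and 4.27 in elav neurons. All wild-type LNv arrays were above all elav arrays. Wild-type LNvs were higher than elav neurons by 3.16 at ZT15 (SE 0.63, adjusted p = 0.00313) and by 4.50 at ZT3 (adjusted p = 0.000203), and both calls held under all 23 alternatives. Oct-TyrR also fell by 3.06 in per0 LNvs against wild type at ZT3 (adjusted p = 0.0154), a call lost without ZT3 replicate 2 or 3 (0.0664 and 0.0543), without per0 replicate 2 (0.0852) and with no filter (0.0649).

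The serotonin receptor gene 5-HT1A read 8.38, 5.51 and 8.20 in per0 LNvs and 3.76, 4.26 and 5.20 in elav neurons. Its values in the other groups are drawn in the plot of the tested receptors and not listed. The per0 arrays were all higher than the elav arrays, with a difference of 2.96 (SE 0.72, adjusted p = 0.0136). This call was lost without per0 replicate 1 or 3 (0.0925 and 0.0718), without elav replicate 1 (0.0653), with no filter (0.0739) and when the 6 arrays of the comparison were fitted alone (0.053). None of the 5 tested receptors passed at ZT15 between per0 and wild-type LNvs or between cyc0 and per0 LNvs. A 5-HT1A level particular to per0 was therefore not shown. The other tested receptors, Octbeta1R, Dop2R and DopEcR, passed in none of the comparisons, with 1, 1 and 3 of 10 under an unadjusted 0.05. For 5-HT1A 5 of 10 and for Oct-TyrR 8 of 10 were under it, against 18.4% over all probe sets and comparisons. Of the 5 tested receptors, then, 1 passed in each of 4 comparisons, where 12.5%, 11.2%, 2.16% and 10.2% of all probe sets passed. The receptor median was -1.02 for cyc0 and -0.65 for per0 against wild type at ZT15, -0.19 between ZT15 and ZT3 and 1.75 between wild-type LNvs and elav neurons at ZT15, beside 0.17, 0.24, -0.06 and 0.11 over all probe sets.

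**Figure D4:**
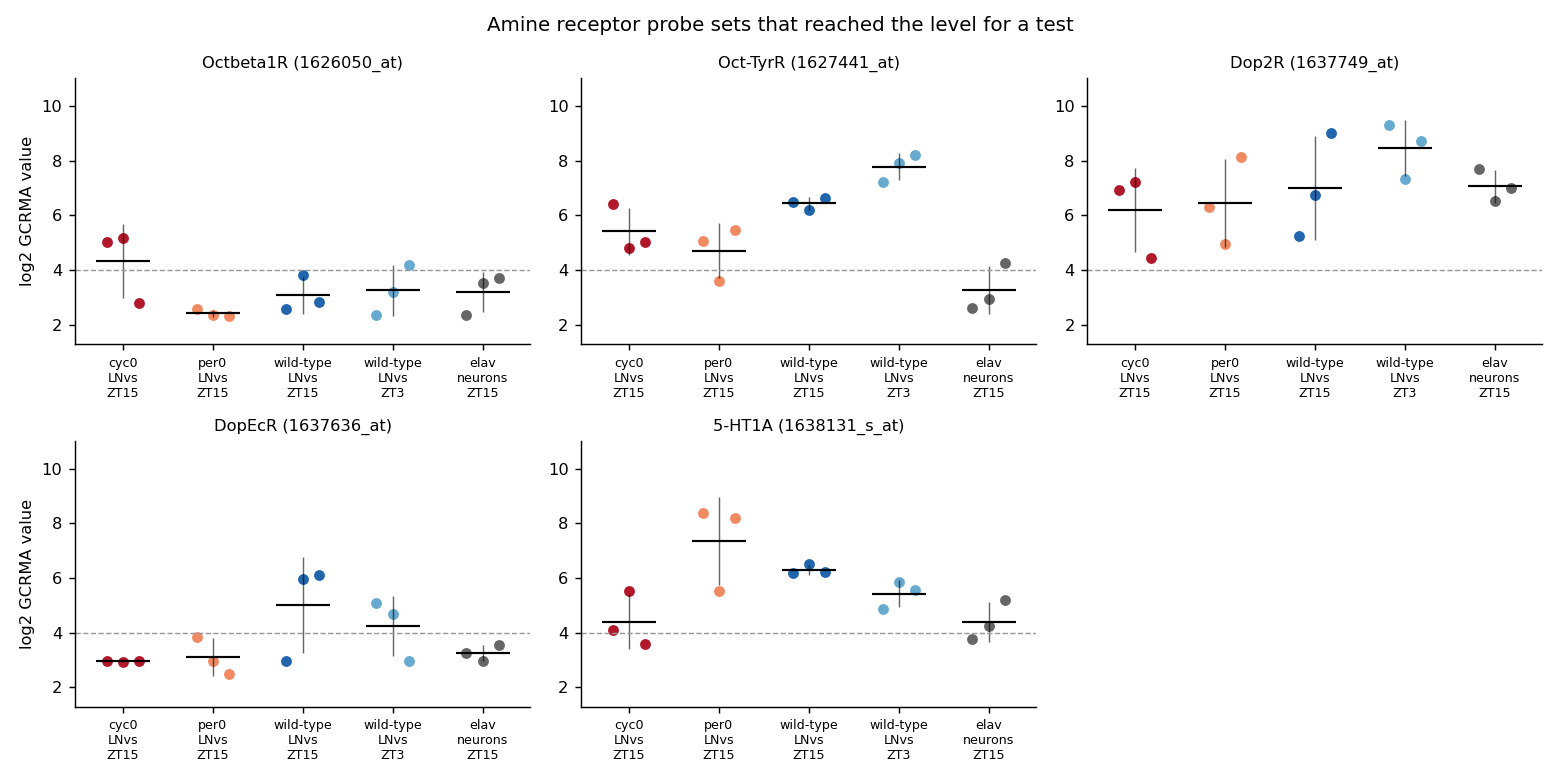
Log2 GCRMA values of the 5 amine receptor probe sets that were tested, with points for arrays, bars for means and lines for SD. Oct-TyrR stands between 6.18 and 8.19 in wild-type LNvs and between 2.61 and 4.27 in elav neurons.

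Among 4997 tested probe sets of other genes (4996 for Vmat), those most like Tbh over the 15 arrays were asrij (Pearson r = 0.906), l(2)efl, which encodes a small heat-shock protein (0.899), and mRpS25, of the mitochondrial ribosome (0.887). Like Tbh, each had its highest group mean in wild-type LNvs at ZT15 (7.17, 8.70 and 9.33). For Ddc they were Blos2 (0.916), which encodes a subunit of a lysosome biogenesis complex, and the Ly6-domain genes CG9338 (0.857) and CG31675 (0.829), with their highest means at ZT3 (5.71, 8.74 and 9.60). For Vmat by 1637393_at they were dpr11 (0.854), of an immunoglobulin family of surface proteins, the axon guidance gene Sema1a (0.778) and CG1090 (0.764), each with its lowest mean in per0 LNvs (2.81, 6.55 and 2.74). These correlations describe 15 arrays that share groups and processing. The genes were chosen for following each member, so that the groups in which they were highest or lowest are a description.

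**Figure D5:**
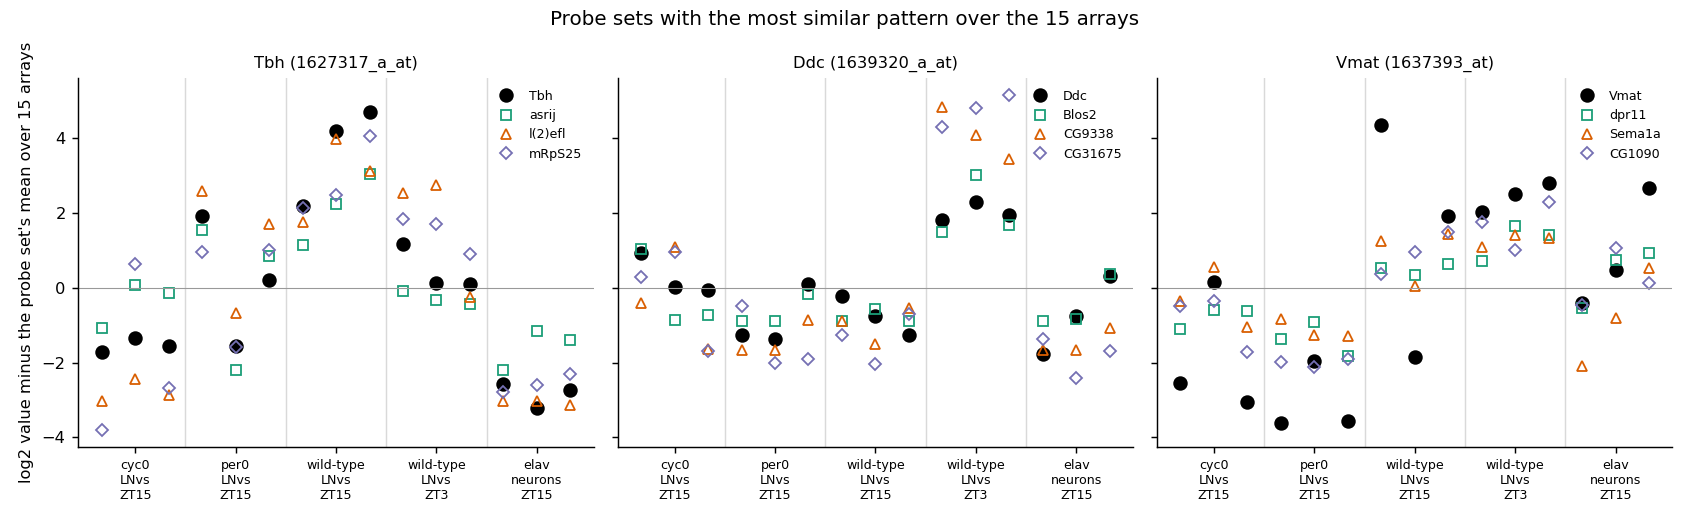
Log2 values minus each probe set's own mean over 15 arrays (vertical axis) for Tbh, Ddc and Vmat (filled points) and the 3 genes with the highest correlation to each (open symbols), by sample group. The Tbh panel is highest in wild-type LNvs at ZT15, the Ddc panel in wild-type LNvs at ZT3, and the Vmat panel lowest in per0 LNvs.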

How the data were processed

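The arrays were Affymetrix Drosophila arrays, and the deposited values are log2 values made by the authors with GCRMA, per the submitters' processing notes. No version of GCRMA was named. The method subtracts a modelled background and normalizes across arrays, so low transcripts gather near the lower end of the scale and differences against them can be understated. Per the labels' protocols, brains were dissociated with collagenase and dispase and RNA of few sorted cells was amplified with NuGen WT-Ovation.

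Groups came from the titles. Of 18869 probe sets 100 controls were left out, and of the rest 13647 had 1 gene symbol, 402 several and 4720 none in the platform annotation. The 5829 probe sets that reached log2 4 on 3 or more of the 15 arrays were fitted with limma 3.58.1 in R 4.3.3, with 1 mean per group, a shared spread, eBayes and two-sided p-values adjusted by Benjamini-Hochberg over all probe sets tested. The script was tested on simulated data. Of 10 comparisons, the 2 between a mutant and wild type at ZT3 were added after the values were seen. The titles number the replicates 1 to 3 in every group.

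Named were all probe sets of the 7 genes, the genes of 3 pathway lists (cofactor and other amine enzymes, amine turnover and other carriers, amine receptors) that passed in at least 1 comparison, and, for each member gene with a call, the 3 probe sets of other genes with the highest Pearson correlation over the 15 arrays. Values of Tdc1, prt, tim and the glial markers Gs2, repo and nrv2 are given in addition, chosen after they were seen. Marker lists covered LNvs, neurons in general, glia, hemocytes, fat body, neuroblasts and fast-transmitter neurons. The members and lists were chosen with earlier results of these data known. Alternatives were 2 other filters, 2 scalings, another prior, array weights, a replicate block, the 6 arrays of a comparison alone and each array left out in turn.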

Additional observations from a re-analysis of the deposited data

How the results depend on the processing

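With 3 arrays a group and a spread shared over groups, most calls of Ddc and Vmat sat near the threshold. Of 910 member values recomputed under 8 alternatives and with each of the 15 arrays left out, 44 lost and 25 gained a call, and 20 changed direction, none of them called. GCRMA values near the lower end cannot be ordered. Array weights were estimated without reaching their tolerance. Median-centring moved the median of all probe sets for per0 LNvs against elav neurons to -0.03, against 0.32 as deposited, and no called member changed direction under either scaling. The cause of the changes below was not tested. With no filter more probe sets were fitted and adjusted for, and the fits to part of the arrays held fewer arrays. The share of all probe sets called under each alternative is not given. A change in the member counts below therefore cannot be told apart from a general change in calls.

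With no filter on low values the number of member probe sets called was 0 for per0 against wild-type LNvs at ZT15, 0 between ZT15 and ZT3, 0 for per0 against elav neurons, 1 for ZT3 wild type against elav neurons and 0 for per0 against ZT3 wild type. Median-centring gave 2, 2 and 1 for per0 against wild type at ZT15, ZT15 against ZT3, and cyc0 against ZT3 wild type. Quantile normalization gave 2, and a trended robust prior 0, between ZT15 and ZT3. Array weights gave 3 for cyc0 and 2 for per0 against wild type at ZT15, 2 for cyc0 against per0, 2 between ZT15 and ZT3, 1 for cyc0 against elav neurons, 3 for ZT3 wild type against elav neurons, and 3 for both cyc0 and per0 against ZT3 wild type. The 6 arrays alone gave 0 for per0 against wild type at ZT15 and 0 between ZT15 and ZT3. With 1 array left out the number ran from 1 to 2 for cyc0 and from 0 to 1 for per0 against wild type at ZT15, from 0 to 2 between ZT15 and ZT3, from 0 to 2 for per0 against elav neurons, from 0 to 1 for cyc0 against ZT3 wild type and from 0 to 2 for per0 against ZT3 wild type.

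The replicate numbers were not shown to pair the arrays: same-numbered arrays deviated from their group means with correlations between -0.192 and 0.196, and 4 of 15 arrays correlated best with their own number. With the replicate number as a block, 0 member probe sets were called for per0 against wild type at ZT15 (Tbh adjusted p = 0.0503), 0 between ZT15 and ZT3 (Ddc adjusted p = 0.0619) and 1 for per0 against elav neurons (Vmat by 1637393_at lost, adjusted p = 0.0602). The block changed no other call of a member.

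The log2 differences that changed direction were small or widely spread. Under array weights they were -0.16 for Vmat by 1637393_at between wild-type LNvs and elav neurons at ZT15, -0.11 for Vmat by 1636275_a_at between cyc0 LNvs and elav neurons (-0.20 after median-centring) and 0.77 for Tbh between per0 and ZT3 wild type. Quantile normalization gave 0.13 for Ddc between wild-type LNvs and elav neurons at ZT15. With 1 array left out, Vmat by 1636275_a_at ran from -1.39 to 0.019 for cyc0 against wild type at ZT15 and from -0.25 to 0.41 for cyc0 against elav neurons. Vmat by 1637393_at ran from -2.42 to 0.69 between ZT15 and ZT3 and from -0.88 to 2.22 for wild type against elav neurons at ZT15. Ddc ran from -0.56 to 0.17 for per0 against wild type at ZT15, from -0.53 to 0.52 for wild type against elav neurons and from -0.62 to 0.43 for per0 against elav neurons at ZT15. Tbh ran from -1.13 to 0.60 for per0 against ZT3 wild type.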
